A study of Drosophila melanogaster with 15 samples.

Results

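The comparison concerns Drosophila melanogaster larvae that lack the NF-kappaB factor Relish, set against wild type larvae, after both had been injected with the Gram-negative bacterium Escherichia coli. It rests on 6 of the 15 Affymetrix arrays of the series, the 3 whose source names give Relish and the 3 whose source names give injected larvae, and on all 13966 probe sets that are not array controls. The Relish mutant larvae carried the allele E20, and the wild type genotype follows from the series design because the labels of those arrays name no mutation. Both groups were larvae in the third instar that received about 0.1 microliter of bacteria suspended in phosphate buffered saline (PBS). RNA was taken 2 h later from pools of 20 larvae. The other 9 arrays, used here for the spread and as levels to set beside the result, were Dif allele 1 and dorsal allele 1 mutants with E. coli and wild type larvae with PBS, 3 of each.

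The labels limit the design in several ways. The titles of all mutant arrays, like those of the wild type PBS arrays, hold the letters ctr, yet the treatment text of the mutants is that of E. coli, and this text was followed here. No Relish mutants injected with PBS were analysed here, so a difference in the response to bacteria and a difference between the stocks cannot be told apart. Whether the pools stem from separate cultures is not stated, so a p-value here reflects how far these pools scatter, which may be technical. In their titles, a number is shared by replicates 2 and 3 of wild type with E. coli, by replicates 2 and 3 of wild type with PBS and by replicates 1 and 2 of the dorsal mutant, and whether such arrays share a pool or an extract is not stated. If they do, the spread used in the tests may be too small. In RNA of whole larvae, fewer cells of a type and less RNA per cell cannot be told apart either.

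Relish is the transcription factor at the end of the Imd pathway. Peptidoglycan of Gram-negative bacteria binds the receptors PGRP-LC and PGRP-LE, the adaptor imd and the caspase Dredd are engaged, and Relish is phosphorylated and cleaved so that its Rel domain enters the nucleus and activates genes of antimicrobial peptides, chiefly in the fat body. Dif and dorsal are the factors of the Toll pathway, which is known for its response to Gram-positive bacteria and fungi. The allele E20 is used as a null allele of the gene.

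The values are scaled signals, in arbitrary intensity units on a linear scale. A log2 difference is the mean of log2(signal + 80) in the Relish mutant minus that in wild type given E. coli, so it understates changes of genes whose signal is low. SE is the standard error of that difference. A probe set is said to be called when its adjusted p, from limma with Benjamini-Hochberg adjustment across all 11427 probe sets that were tested, was below 0.05.

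Several properties of the arrays varied between pools. Relish mutant replicate 1 stood apart in a measure of RNA quality, with a ratio of 3′ to 5′ signal of 14.82 for the control transcript eIF-4a, where the other 5 arrays lay between 5.11 and 5.67. Other control transcripts varied in wild type too. The actin ratios were 5.09, 1.69 and 1.75 in the Relish mutant, against 2.36, 5.28 and 3.41 in wild type given E. coli. Those of GAPDH were 6.03, 2.25 and 3.55, against 2.64, 4.14 and 4.42. The summed signal of 10 salivary glue genes, which are switched on late in the third instar, was 279335, 45836 and 438472 in the Relish mutant pools and 288344, 18293 and 70514 in the wild type E. coli pools. Digestive enzyme genes summed to 1964754, 2128770 and 1732390 in the Relish mutant, against 1299528, 1865855 and 1396281 in wild type given E. coli. Both sums overlapped between the groups, and the part that such differences have in the results was not tested, beyond the count without Relish mutant replicate 1 given below.

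**Figure D1:**
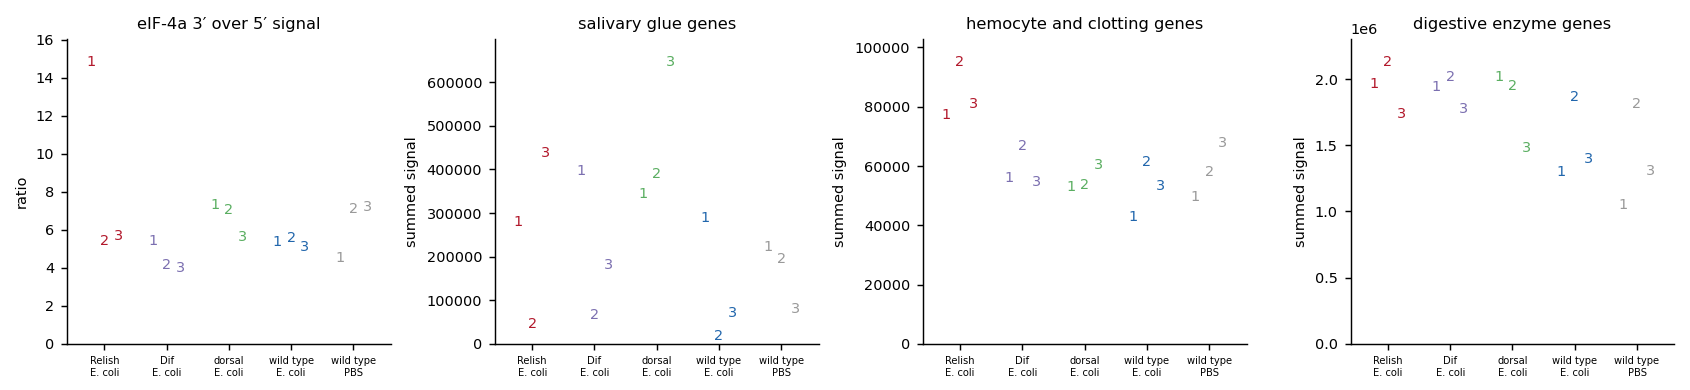
Properties of the 15 arrays. Each digit is the replicate number of an array, placed by group on the horizontal axis. The vertical axes, which start at 0, give the ratio of 3′ to 5′ signal of eIF-4a and the summed signals of the salivary glue, hemocyte and clotting, and digestive enzyme lists. Relish mutant replicate 1 has the highest ratio (14.82), the glue sums spread widely within groups, and the hemocyte sums of the Relish mutant lie above those of wild type with E. coli. The hemocyte sums include PPO1, PPO2 and fon, and without these genes the sums of both groups overlap.

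The transcript of the mutated gene was nearly absent in the mutant. The 3 mutant pools gave Rel signals of 18.9, 11.4 and 27.4, against 4980.7, 3095.2 and 3328.6 in the wild type E. coli pools. All 3 mutant values lay below the pseudocount of 80, and the groups were far apart (log2 difference -5.26, SE 0.34, adjusted p = 5.06e-08). This reading bears on the genotype of the arrays, and where the probes lie relative to the mutation was not analysed here. Rel averaged 3801.5 in wild type given E. coli, 730.8 in wild type with PBS, 1185.1 in the Dif mutant and 955.6 in the dorsal mutant. The size of the difference therefore depends on the wild type group chosen. The transcripts of the other mutated genes did not pass the test, with log2 differences of -1.15 for Dif (SE 0.41, adjusted p = 0.208) and -1.17 for dl (SE 0.44, adjusted p = 0.235).

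In all, 215 probe sets were called, which is 1.88% of those tested. Of these, 85 were higher in the Relish mutant (0.744%) and 130 were lower (1.14%). The falls were also the larger changes, since 52 probe sets fell by at least 2 on the log2 scale and 17 rose by at least 2. Without Relish mutant replicate 1, the array with the high 3′ to 5′ ratio of eIF-4a, 126 were called, 42 higher and 84 lower. Without wild type E. coli replicate 3 there were 116, without replicate 2 there were 137, and without Relish mutant replicate 2 there were 141. Averaging the arrays that share a title number left 94, 33 higher and 61 lower. Counted as genes with a probe set of their own, 77 of 9190 were higher and 105 lower, and the median log2 difference over all of these genes was 0.09. These figures are the background for the gene lists below, together with the 19.4% of probe sets whose 3 Relish mutant arrays did not overlap the 3 wild type E. coli arrays in either direction.

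**Figure D2:**
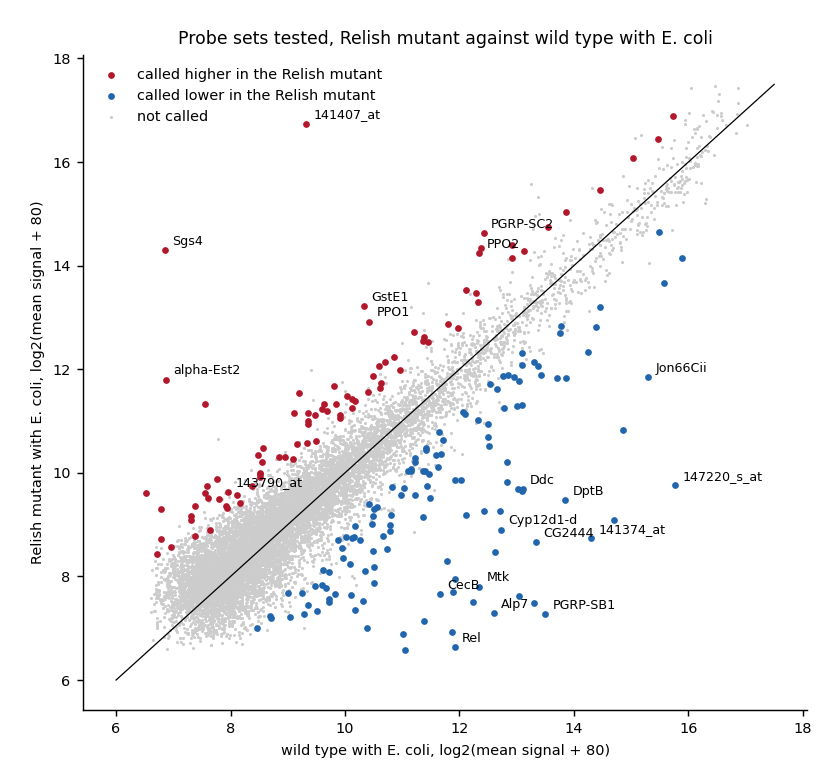
Relish mutant against wild type with E. coli, for the 11427 probe sets tested. Each point is a probe set, with log2(mean signal + 80) over 3 arrays of wild type with E. coli on the horizontal axis and of the Relish mutant on the vertical axis. The diagonal marks equal signals. Red points are the 85 called higher and blue points the 130 called lower in the Relish mutant, and the blue points reach farther from the diagonal except for 141407_at, Sgs4 and alpha-Est2.

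Antimicrobial peptides had the lowest median of the gene lists. The list held 14 genes for antimicrobial peptides, of which 8 had no probe set with a single gene symbol, and 5 of the remaining 6 fell, with a median of -3.66. DptB, a diptericin gene active against Gram-negative bacteria, read 692.0, 579.3 and 616.9 signal units in the Relish mutant, against 21730.6, 10452.4 and 11941.7 in wild type given E. coli. The mutant arrays were close to each other and wild type was 23.4 times as high in mean signal (log2 difference -4.31, SE 0.45, adjusted p = 3.67e-05). Wild type larvae with PBS averaged 1248.7, the Dif mutant 2815.4 and the dorsal mutant 2489.3. The differences from these mutants did not pass the test (adjusted p = 0.0633 for Dif and 0.051 for dorsal).

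Mtk, which encodes metchnikowin, read 134.1, 202.8 and 93.2 signal units in the Relish mutant, against 7573.6, 3347.4 and 4492.8 in wild type given E. coli (log2 difference -4.49, SE 0.58, adjusted p = 1.97e-04). Every mutant value lay below the lowest of wild type with PBS as well, which was 336.0. CecB, a cecropin gene, read 159.1, 42.1 and 165.9 in the Relish mutant, against 4454.2, 2288.1 and 2749.9 in wild type given E. coli (log2 difference -4.02, SE 0.50, adjusted p = 1.28e-04). Here the mutant overlapped wild type with PBS, whose arrays read 61.3, 256.3 and 179.7, with Relish mutant replicate 2 below all of them. The defensin gene Def read 45.8, 51.8 and 50.1 in the Relish mutant, all below the pseudocount, against 1262.8, 770.8 and 1732.5 in wild type given E. coli (log2 difference -3.30, SE 0.50, adjusted p = 0.00109). Means in the Dif and dorsal mutants were 2166.3 and 1782.4 for Mtk, 253.1 and 230.0 for CecB, and 183.3 and 218.4 for Def. The Relish mutant was lower than both for Mtk (adjusted p = 0.0116 and 0.0163). No such difference passed the test for CecB (adjusted p = 0.681 and 0.631) or Def (adjusted p = 0.414 and 0.314).

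The attacin gene AttD differed less, at 381.6, 98.1 and 193.3 signal units in the Relish mutant, against 1603.3, 764.5 and 665.8 in wild type given E. coli (log2 difference -1.85, SE 0.41, adjusted p = 0.0233). Its call was lost without Relish mutant replicate 2 or 3 and without wild type E. coli replicate 1 or 2, at adjusted p up to 0.126. AttD averaged 450.2 in the Dif mutant and 381.9 in the dorsal mutant, and neither differed from the Relish mutant in the test (adjusted p = 0.373 and 0.489). The remaining member, the drosomycin gene Drs, is known as a target of the Toll pathway in the fat body. It read 11397.1, 3407.9 and 11903.8 in the Relish mutant, against 21436.0, 17726.6 and 19739.2 in wild type given E. coli. Its arrays did not overlap, but its log2 difference of -1.33 (SE 0.42) missed the threshold at an adjusted p of 0.140. Drs falls outside the naming rule and was added after its values were seen.

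Recognition proteins moved in opposite directions. PGRP-SB1, a secreted peptidoglycan amidase, had the largest fall of any named gene, at 40.1, 88.3 and 94.6 signal units in the Relish mutant, against 9507.2, 11613.0 and 13335.0 in wild type given E. coli (log2 difference -6.23, SE 0.74, adjusted p = 8.30e-05). Its mutant mean of 74.3 was below the pseudocount and below the PBS mean of 1100.1. Means were 1600.8 in the Dif mutant and 963.8 in the dorsal mutant, and the differences from these did not pass the test (adjusted p = 0.132 and 0.0887). PGRP-SC2, another secreted amidase, known to limit Imd signalling in the gut, read 31879.0, 21362.7 and 22342.3 in the Relish mutant, against 5838.1, 5120.7 and 5272.8 in wild type given E. coli (log2 difference 2.18, SE 0.46, adjusted p = 0.0161). The groups did not overlap, but the call was lost without Relish mutant replicate 1 and without wild type E. coli replicate 2 or 3, at adjusted p up to 0.0886. PGRP-SC2 averaged 8572.0 in the Dif mutant, 21991.5 in the dorsal mutant and 4348.2 in wild type with PBS. Neither mutant differed from the Relish mutant in the test (adjusted p = 0.0719 for Dif and 0.679 for dorsal). The other 5 recognition genes tested were not called, and the list median was -0.42.

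Among them was PGRP-LB, an amidase that is itself induced by the pathway and limits it, named here after its values were seen. It read 849.1, 978.1 and 1108.4 signal units in the Relish mutant, against 2604.1, 1387.4 and 2262.4 in wild type given E. coli, just short of the threshold (log2 difference -0.99, SE 0.25, adjusted p = 0.0523). None of the 18 Imd pathway signalling genes tested was called, and their median was -0.06. The largest difference in that list was in pirk, an inhibitor of the receptors, at -0.97 (SE 0.45, adjusted p = 0.361), followed by the adaptor Fadd at -0.73 (SE 0.42, adjusted p = 0.498). Non-overlap was seen in 4 of the 18, a share near the 19.4% of all probe sets.

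**Figure D3:**
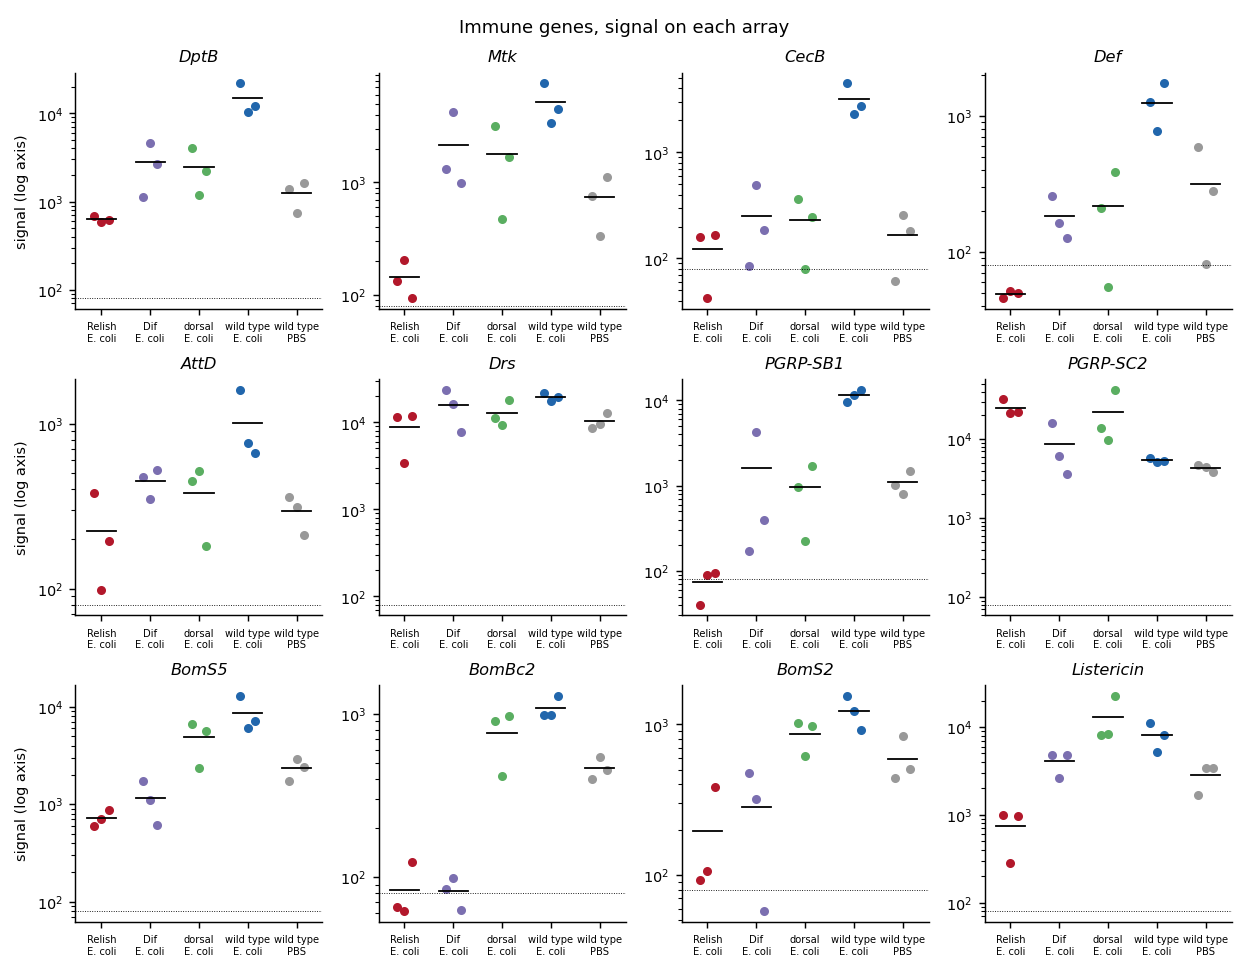
Signals of 12 immune genes on each array. Each point is an array, the black bar is the mean of 3 arrays and the dotted line, where it falls within a panel, is the pseudocount of 80. The vertical axes are logarithmic. In every panel except PGRP-SC2 the 3 Relish mutant arrays lie below the 3 wild type E. coli arrays, and for PGRP-SC2 they lie above.

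Peptides usually assigned to the Toll pathway were lower in part. Of 12 such genes tested, 3 fell and none rose, and the median was -0.92. BomS5, a bomanin, read 591.3, 708.3 and 871.3 signal units in the Relish mutant, against 12826.1, 6109.6 and 7126.5 in wild type given E. coli (log2 difference -3.39, SE 0.39, adjusted p = 6.65e-05). BomBc2 read 65.8, 62.0 and 124.0 in the Relish mutant, against 986.1, 977.5 and 1283.1 in wild type given E. coli (log2 difference -2.84, SE 0.33, adjusted p = 6.91e-05). For both genes the mutant arrays lay below all 3 PBS arrays too, whose means were 2355.4 for BomS5 and 464.5 for BomBc2. The Dif mutant averaged 1147.1 and 82.2, and no difference from it passed the test (adjusted p = 0.639 and 0.999). The dorsal mutant averaged 4890.5 and 766.6, above the Relish mutant (adjusted p = 0.002 and 0.0011). BomS2, a neighbour of BomBc2 on the chromosome, read 92.4, 106.8 and 385.3 in the Relish mutant, against 1540.9, 1236.2 and 912.3 in wild type given E. coli (log2 difference -2.38, SE 0.47, adjusted p = 0.0102). Its call was lost without Relish mutant replicate 1 or 2 and without wild type E. coli replicate 1, at adjusted p up to 0.0652. BomS2 averaged 285.1 in the Dif mutant, not different in the test (adjusted p = 0.83), and 870.2 in the dorsal mutant (adjusted p = 0.037). The highest difference of the list was that of BomBc3, which read 1512.3, 165.1 and 2929.3 in the Relish mutant, against 208.5, 149.8 and 59.8 in wild type given E. coli. The mutant pools varied too much for a call (log2 difference 2.33, adjusted p = 0.176), and the gene was added after its values were seen.

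Other parts of Toll signalling showed single changes. The receptor gene Tl read 349.1, 376.5 and 583.0 signal units in the Relish mutant, against 1576.2, 1134.7 and 1302.5 in wild type given E. coli (log2 difference -1.47, SE 0.32, adjusted p = 0.0213). It was the only one of 17 genes between the receptor and the NF-kappaB factors to be called. SPE, the protease that cleaves the Toll ligand, was the only called member of 15 in the protease cascade, at 611.9, 969.6 and 1391.8 in the Relish mutant, against 2256.0, 2121.2 and 2211.1 in wild type given E. coli (log2 difference -1.15, SE 0.28, adjusted p = 0.0424). Each of these calls was lost when single arrays were left out, at adjusted p up to 0.101 for Tl and 0.201 for SPE. In the Dif mutant, the dorsal mutant and wild type with PBS, Tl averaged 553.5, 995.3 and 731.6, and SPE 927.0, 925.0 and 1021.3. The Relish mutant means were 436.2 for Tl and 991.1 for SPE. No difference from the other mutants passed the test (adjusted p = 0.781 and 0.0871 for Tl, 0.951 and 0.967 for SPE). The serpin gene nec, an inhibitor in that cascade, had a log2 difference of -2.07 but was not called (adjusted p = 0.160). The median of the protease cascade was -0.78 and that of the Toll core was -0.22.

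Listericin, which encodes an antibacterial peptide, read 1003.3, 283.7 and 961.9 signal units in the Relish mutant, against 11222.4, 5265.8 and 8186.3 in wild type given E. coli (log2 difference -3.42, SE 0.45, adjusted p = 2.61e-04). The mutant arrays also lay below those of PBS, which averaged 2832.0. Of JAK-STAT genes and stress peptides, 1 of 6 fell, namely a probe set of the factor Stat92E at -0.97 (SE 0.24, adjusted p = 0.0492), while its other probe set read -0.06. The AP-1 factor kay likewise had a called probe set at -1.22 (SE 0.30, adjusted p = 0.0438) and another at -0.05, and it was the only member of 19 JNK and wound response genes to pass. Both calls were lost without each of 5 of the 6 arrays, at adjusted p up to 0.212 for Stat92E and 0.173 for kay.

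Enzymes that make dopamine, a precursor for hardening and darkening of cuticle and for closing wounds, were lower. The tyrosine hydroxylase gene ple read 107.5, 477.3 and 113.7 signal units in the Relish mutant, against 4669.8, 2052.0 and 3624.0 in wild type given E. coli (log2 difference -3.62, SE 0.62, adjusted p = 0.00317). The dopa decarboxylase gene Ddc read 1352.4, 171.8 and 708.1 in the Relish mutant, against 10549.1, 7126.5 and 8471.5 in wild type given E. coli (log2 difference -3.72, SE 0.71, adjusted p = 0.00797). In both genes the mutant arrays overlapped those of wild type with PBS, which averaged 363.7 for ple and 1018.9 for Ddc. The Dif and dorsal mutants averaged 525.0 and 305.6 for ple, and 1618.8 and 3742.9 for Ddc. No difference of the Relish mutant from them passed the test (adjusted p = 0.463 and 0.961 for ple, 0.565 and 0.178 for Ddc). Ddc was not called without Relish mutant replicate 2, at an adjusted p of 0.0532. The other 11 genes of the tanning list, among them e, the ebony gene, at -1.02 (adjusted p = 0.238) and named after its value was seen, were not called, and the list median was -0.46.

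Prophenoloxidases, the enzymes of melanin formation that crystal cells carry, were higher in the Relish mutant. PPO1 read 6415.3, 8055.2 and 8482.7 signal units in the Relish mutant, against 873.7, 1493.6 and 1505.0 in wild type given E. coli (log2 difference 2.52, SE 0.24, adjusted p = 1.76e-05). PPO2 read 17218.3, 19892.7 and 20553.1 in the Relish mutant, against 3257.4, 6531.3 and 5580.8 in wild type given E. coli (log2 difference 1.94, SE 0.30, adjusted p = 0.00119). In both genes all 3 mutant arrays were above every other array of the series. A second probe set of PPO2, of low signal, read 80.5, 190.6 and 219.3 in the Relish mutant, against 92.9, 68.4 and 220.8 in wild type given E. coli and was not called. PPO1 and PPO2 differed from the other mutants as well, by 1.38 and 1.52 from the Dif mutant (adjusted p = 0.00726 and 0.0165) and by 1.59 and 1.70 from the dorsal mutant (adjusted p = 0.00200 and 0.00514). Over all probe sets, 1.15% were called between the Relish and Dif mutants and 3.05% between the Relish and dorsal mutants.

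Of 25 hemocyte and clotting genes 3 rose and none fell, with a median of 0.03. The mutant arrays lay wholly above those of wild type given E. coli for 7 of the 25 and wholly below for 1, where over all 9190 genes they lay above for 1092 and below for 709. The third was fon, the clotting gene fondue, at 18991.1, 21646.1 and 18794.5 signal units in the Relish mutant, against 9913.0, 9002.7 and 7805.2 in wild type given E. coli (log2 difference 1.15, SE 0.26, adjusted p = 0.0283), a call that none of the 6 fits without 1 array kept. The list summed to 77268, 95105 and 80809 in the Relish mutant, against 42825, 61344 and 53246 in wild type given E. coli. These sums did not overlap. Without PPO1, PPO2 and fon they did, at 34644, 45511 and 32979 in the Relish mutant, against 28781, 44317 and 38355 in wild type given E. coli. The part of cell number in the rises was not tested. The crystal cell factor lz read 177.7, 39.3 and 124.4 in the Relish mutant, against 166.7, 138.7 and 192.7 in wild type given E. coli, and the plasmatocyte gene Hml differed by 0.45 (SE 0.22, adjusted p = 0.385). Both were added after their values were seen. Of 11 phagocytosis receptors and thioester proteins, none was called, with Tep4 nearest at -0.95 (SE 0.24, adjusted p = 0.0505).

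**Figure D4:**
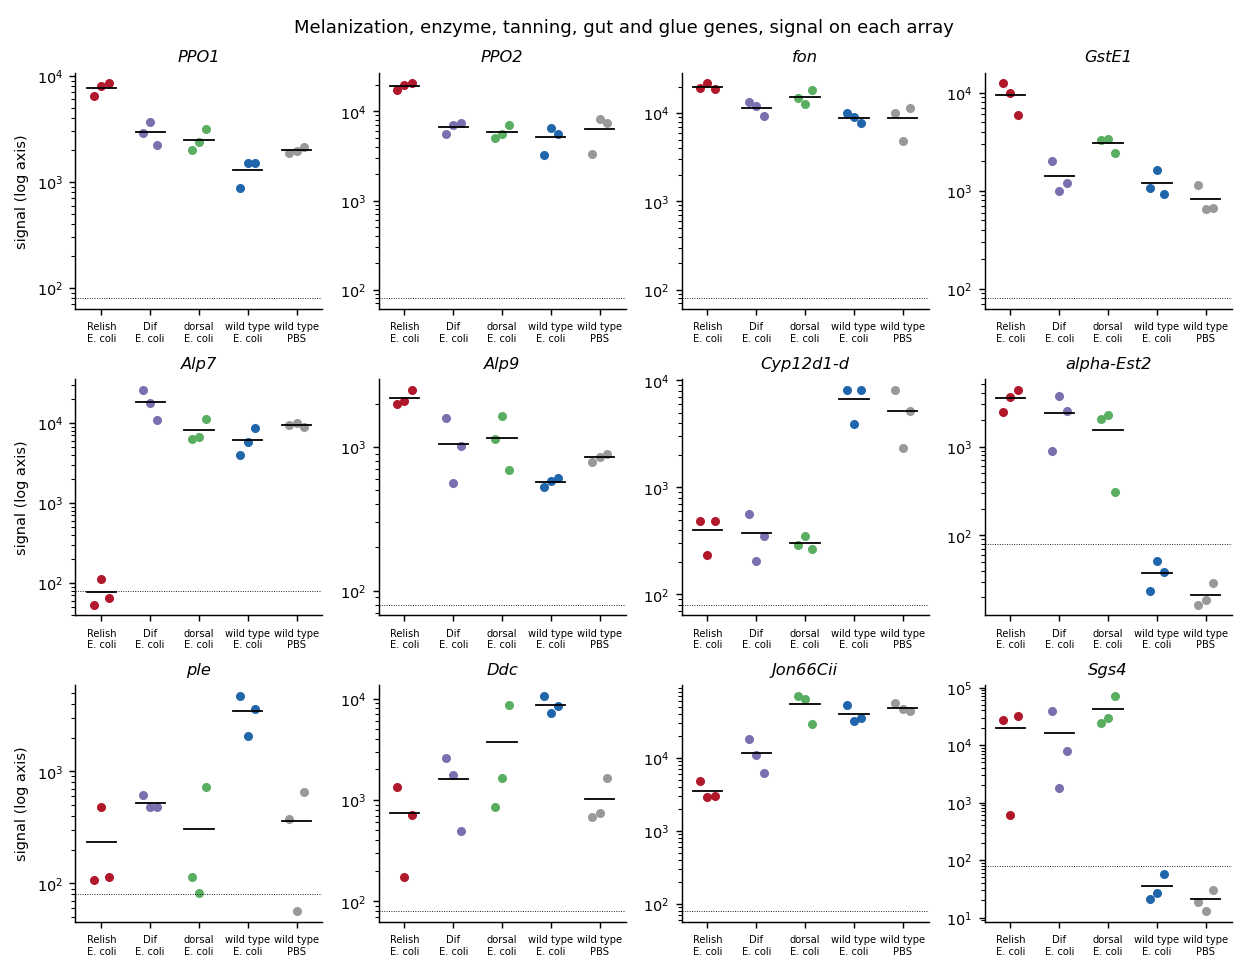
Signals of 12 genes of melanization, metabolism, tanning, gut and salivary gland on each array. Each point is an array, the black bar is the mean of 3 arrays and the dotted line is the pseudocount of 80. The vertical axes are logarithmic. Relish mutant arrays lie wholly above all other arrays for PPO1, PPO2, GstE1, Alp9 and, narrowly, fon. They lie wholly below all others for Alp7 and Jon66Cii. For Cyp12d1-d, alpha-Est2 and Sgs4 the Dif and dorsal mutant arrays lie on the same side of wild type as the Relish mutant arrays.

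Alkaline phosphatase genes held both a large fall and a rise. Alp7 read 53.4, 113.4 and 64.1 signal units in the Relish mutant, against 3938.7, 5784.8 and 8666.4 in wild type given E. coli (log2 difference -5.25, SE 0.32, adjusted p = 2.27e-08). Means elsewhere were 18146.6 in the Dif mutant, 8118.7 in the dorsal mutant and 9454.2 in wild type with PBS, so the low level was seen on the Relish mutant arrays and on no others. The differences from the other mutants were -6.79 for Dif (adjusted p = 6.31e-10) and -5.68 for dorsal (adjusted p = 1.26e-08). Alp9 read 2003.2, 2090.0 and 2495.3 in the Relish mutant, against 524.1, 577.8 and 613.0 in wild type given E. coli (log2 difference 1.80, SE 0.32, adjusted p = 0.00403). The other 10 genes of the family were not called.

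Enzymes of detoxification changed singly. GstE1, a glutathione S-transferase, read 12415.0, 9958.2 and 5896.9 signal units in the Relish mutant, against 1069.8, 1639.9 and 919.9 in wild type given E. coli (log2 difference 2.86, SE 0.32, adjusted p = 4.64e-05). Like PPO1 it was above both other mutants, by 2.67 over Dif (adjusted p = 1.73e-04) and 1.56 over dorsal (adjusted p = 0.0131). GstE5 rose by 1.65 and GstE8 fell by 2.00, and the other 28 of 31 members were not called. GstE5 did not differ from the Dif mutant (adjusted p = 0.977) and was above the dorsal mutant (adjusted p = 0.0328). GstE8 differed from neither (adjusted p = 0.207 and 0.651). The GstE8 call was kept in 2 of the 6 fits that left out an array, at adjusted p up to 0.0798. The P450 gene Cyp12d1-d read 480.8, 235.3 and 482.3 in the Relish mutant, against 8085.5, 3920.2 and 8166.0 in wild type given E. coli (log2 difference -3.80, SE 0.41, adjusted p = 4.46e-05). Its means in the Dif and dorsal mutants were 374.2 and 301.8, and no difference between the mutants passed the test (log2 differences 0.11 and 0.29, adjusted p = 0.949 and 0.794). Of 72 P450 genes, 4 rose and 1 fell, the rises being Cyp6a18 (1.71), Cyp6a13 (1.64), Cyp6d4 (1.50) and Cyp28a5 (1.16). None of these rises differed from the Dif mutant in the test (adjusted p = 0.264, 0.448, 0.853 and 0.314). Cyp6a18 and Cyp6d4 were above the dorsal mutant (adjusted p = 0.0331 and 0.00329), and Cyp6a13 and Cyp28a5 did not differ from it (adjusted p = 0.585 and 0.852). With an array left out, Cyp6a13 was called in 0 of 6 fits (adjusted p up to 0.142) and Cyp28a5 in 4 (adjusted p up to 0.0850), while Cyp6a18 and Cyp6d4 passed in all 6. Of 26 UDP-glycosyltransferases 2 rose, Ugt37A2 (1.47) and Ugt35C1 (1.45), and Ugt37C2 fell by 1.46. These calls rested on all arrays together, being kept in 1, 1 and 0 of the 6 fits, at adjusted p up to 0.144, 0.162 and 0.116. Members of these families can share probe sequence, so single values are uncertain.

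The carboxylesterase alpha-Est2 and the glue protein gene Sgs4 were the largest named rises, both from wild type signals below the pseudocount. The esterase read 2427.2, 3659.6 and 4351.2 signal units in the Relish mutant, against 23.6, 50.7 and 38.1 in wild type given E. coli (log2 difference 4.89, SE 0.55, adjusted p = 5.46e-05). It was high in the other mutants as well, with means of 2363.6 for Dif and 1539.6 for dorsal, and low in wild type with PBS at 21.5. Sgs4 read 27543.5, 615.2 and 32198.5 in the Relish mutant, against 20.8, 26.6 and 57.9 in wild type given E. coli (log2 difference 6.22, SE 1.10, adjusted p = 0.00407). The low mutant value came from the pool with the low glue sum. None of the other 9 glue genes was called. Without Sgs4 the glue sums overlapped, at 251791, 45220 and 406274 in the Relish mutant, against 288323, 18266 and 70456 in wild type given E. coli, so wild type replicate 1 had abundant glue transcripts and a Sgs4 signal of 20.8. Sgs4 averaged 16445.5 in the Dif mutant, 41549.3 in the dorsal mutant and 20.9 in wild type with PBS.

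Gut genes showed 2 falls and no rise among 45 digestive proteases, lysozymes and carbohydrases, with a median of 0.14. Short of a call, the mutant arrays lay wholly above those of wild type given E. coli for 13 of the 45, and counting the 2 called genes they lay wholly below for 6. The same counts over all 9190 genes were 1092 above and 709 below. Jon66Cii, a serine protease gene of the midgut, read 4830.8, 2895.5 and 3052.2 signal units in the Relish mutant, against 52682.2, 32713.8 and 35017.2 in wild type given E. coli (log2 difference -3.46, SE 0.36, adjusted p = 3.67e-05). Wild type with PBS averaged 49246.9, the dorsal mutant 55157.2 and the Dif mutant 11805.6. The Relish mutant was below both of these mutants (adjusted p = 1.92e-05 for dorsal and 0.0394 for Dif). The lysozyme gene LysX read 1523.4, 1093.5 and 1530.9 in the Relish mutant, against 8439.9, 3957.1 and 4851.6 in wild type given E. coli (log2 difference -1.94, SE 0.33, adjusted p = 0.00291). Its arrays did not overlap either, and both calls held without each of the 6 arrays. LysX averaged 1707.9 in the Dif mutant and 2200.8 in the dorsal mutant, and neither differed from the Relish mutant in the test (adjusted p = 0.809 and 0.333). The immune-regulated catalase Irc, which removes hydrogen peroxide in the gut, fell by 1.68 (SE 0.28, adjusted p = 0.00292), as the only called member of 16 enzymes that make or remove reactive oxygen.

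Metabolic and structural lists held few calls. Pepck2, an enzyme of gluconeogenesis, read 3541.8, 3758.8 and 5265.5 signal units in the Relish mutant, against 1781.1, 1209.3 and 1422.1 in wild type given E. coli (log2 difference 1.46, SE 0.25, adjusted p = 0.00292). Treh, which encodes trehalase, read 2845.9, 2378.0 and 2810.4 in the Relish mutant, against 1013.0, 1216.6 and 892.8 in wild type given E. coli (log2 difference 1.30, SE 0.22, adjusted p = 0.00318). Pepck2 and Treh were the 2 called of 19 genes of glycolysis and trehalose. Pepck2 was as high in the Dif and dorsal mutants, at 4283.8 and 4905.2, and averaged 1056.5 in wild type with PBS. Treh averaged 1748.2, 1538.2 and 1230.2 in these groups. No difference of the Relish mutant from the other mutants passed the test (adjusted p = 0.983 and 0.682 for Pepck2, 0.242 and 0.0778 for Treh). Of 14 iron and metal genes, Tsf3, a transferrin gene, fell by 1.98 (SE 0.45, adjusted p = 0.0283), a call kept in 1 of the 6 fits without an array (adjusted p up to 0.127). In 99 cuticle genes Cpr67Fa2 fell by 2.99 (SE 0.41, adjusted p = 3.26e-04), the chitin synthase gene kkv fell by 1.44 and TwdlN rose by 1.85 in its called probe set. Cpr67Fa2 averaged 820.2 in the Relish mutant, 620.3 in the Dif mutant, 155.1 in the dorsal mutant and 8077.8 in wild type with PBS. The Relish mutant did not differ from Dif (adjusted p = 0.791) and was above dorsal by 2.12 (adjusted p = 0.00825). The kkv call was kept in 3 of the 6 fits and that of TwdlN in 0, at adjusted p up to 0.0943 and 0.169. Mf fell by 1.23 among 18 muscle genes, where a probe set of up, the troponin T gene, rose by 1.77 and its brighter probe set read -0.39. Mf was called in 4 of the 6 fits and up in 1, at adjusted p up to 0.0609 and 0.179. Among 18 testis genes bol rose by 1.22 in a probe set and read 0.37 in another, with a list median of 0.66. Its call was kept in 2 of the 6 fits, at adjusted p up to 0.103.

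No member was called in the lists for fat body and larval serum proteins (9 genes), lipid storage and synthesis (26), ecdysone response (17), heat shock proteins (12) and insulin signalling (11). The same held for cytoplasmic ribosomal proteins (36), mitochondrial ribosomal proteins (63), the proteasome (29) and the respiratory chain (63). Their medians lay between -0.19 for heat shock proteins and 0.22 for ecdysone response. The largest single difference in them was that of Fbp1, a fat body receptor for storage proteins that ecdysone induces, at 54651.9, 1559.4 and 91089.2 signal units in the Relish mutant, against 26757.4, 808.8 and 1479.4 in wild type given E. coli. Its arrays overlapped and its log2 difference of 2.59 had an SE of 1.61 (adjusted p = 0.532).

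**Figure D5:**
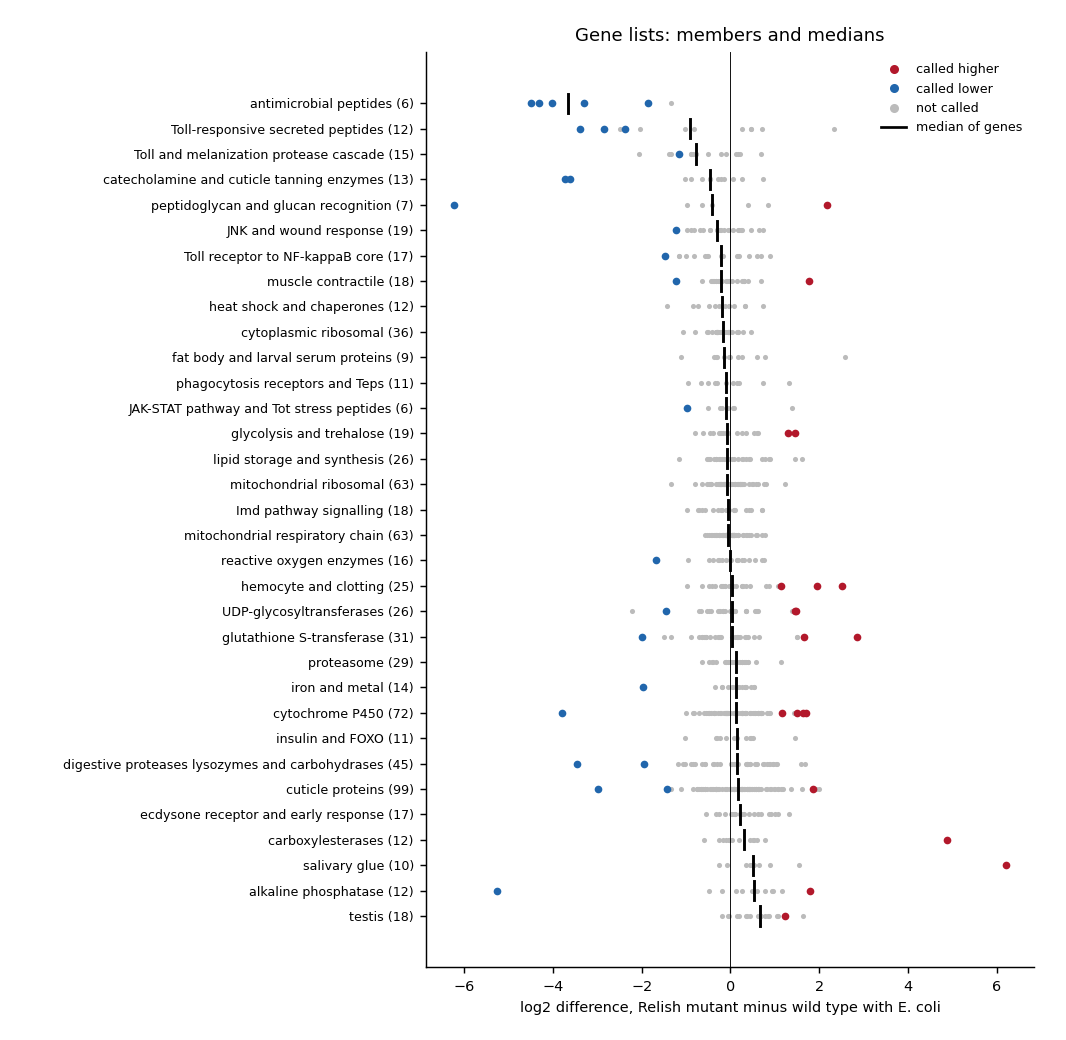
Log2 differences of the 33 gene lists, ordered by median. The horizontal axis gives the log2 difference, Relish mutant minus wild type with E. coli. Each point is a probe set of a listed gene (red called higher, blue called lower, grey not called), the black bar is the median over the list's genes and the number in brackets is how many genes were tested. The antimicrobial peptides have the lowest median, -3.66, and most other medians lie close to 0.

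Several of the largest changes were in genes with little known function. CG2444 read 491.0, 276.2 and 207.8 signal units in the Relish mutant, against 16310.1, 5901.8 and 8801.2 in wild type given E. coli (log2 difference -4.62, SE 0.57, adjusted p = 1.18e-04), and its PBS mean of 4937.6 was above the mutant too. CG14567 read 200.4, 712.8 and 684.9 in the Relish mutant, against 8255.3, 5441.9 and 6031.4 in wild type given E. coli (log2 difference -3.56, SE 0.53, adjusted p = 9.19e-04), where wild type with PBS averaged 451.7. The mutant therefore lay near the PBS level for CG14567 and below it for CG2444. For CG14567 the Dif and dorsal mutants averaged 563.3 and 690.8, and no difference from them passed the test (adjusted p = 0.977 and 0.756). CG2444 averaged 2548.3 and 5220.7 there and was lower in the Relish mutant (adjusted p = 0.048 and 0.00329). CG17290, CG8160 and CG6142 fell by 3.83, 3.03 and 2.87. CG17290 averaged 38.5 with Relish mutated, 364.4 with Dif, 70.0 with dorsal, and 2641.5 in PBS-injected wild type. CG8160 stood at 536.4, 162.2, 794.1 and 7710.7 in that order, and CG6142 at 103.3, 431.5, 629.7 and 376.4. Wild type given E. coli averaged 1990.3, 5452.2 and 1197.3. Neither other mutant differed from the Relish mutant in the test. Adjusted p for Dif and dorsal was 0.258 and 0.864 (CG17290), 0.187 and 0.657 (CG8160), 0.248 and 0.065 (CG6142). With CG17290, CG8160, CG6142, Rel and the genes described above, the list of the 20 largest falls is complete. Of the 20, 19 stayed called whichever of the 6 arrays was left out, the exception being Ddc.

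The 20 largest rises were less steady. CG43798 read 812.8, 476.9 and 828.0 signal units in the Relish mutant, against 11.0, 10.4 and 14.1 in wild type given E. coli (log2 difference 3.06, SE 0.42, adjusted p = 3.75e-04). CG14120 read 2016.8, 3871.4 and 2756.2 in the Relish mutant, against 778.4, 518.8 and 231.4 in wild type given E. coli (log2 difference 2.40, SE 0.36, adjusted p = 9.24e-04). The first was also high in the Dif and dorsal mutants, at 624.3 and 505.4, whereas CG14120 stood at 476.0 and 513.4 there and differed from both (log2 differences 2.38 and 2.33, adjusted p = 0.00175 and 0.00200). The translation factor gene eIF5B rose by 1.88, CG17191 by 2.46 and CG16727 by 2.11. These were high in the other mutants too. In the Dif and dorsal mutants eIF5B averaged 3095.1 and 2074.1, CG17191 1278.9 and 1294.9, and CG16727 5827.5 and 7027.6. The Relish mutant means were 3199.2, 548.8 and 2211.4, and those of wild type given E. coli were 817.6, 30.7 and 468.9. CG43798, CG14120, eIF5B, CG17191 and CG16727, and also Sgs4, alpha-Est2, GstE1, PPO1 and PPO2, kept their calls without each array. The other 10, whose rises lay between 1.89 and 2.23, did not: Srg2, CG11892, PGRP-SC2, CG7120, CG15406, Ntf-2r, CG4630, CG11911, CG8028 and the serpin gene Spn47C.

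Some called genes were neighbours among the genes tested, in the order of the RefSeq annotation. There were 11 such runs with 23 genes in all, and 7 runs moved in a single direction. They were looked up after the calls were known. CG17751, CG17752 and CG16727 formed the longest run and all rose, by 1.61, 1.38 and 2.11, although CG17752 was called in only 2 of the 6 fits without an array (adjusted p up to 0.0994). The salivary gland gene Pig1 lies next to Sgs4 and read 4957.9, 3929.5 and 4402.3 signal units in the Relish mutant, against 1745.2, 1459.9 and 1557.2 in wild type given E. coli (log2 difference 1.43, SE 0.25, adjusted p = 0.00350). Nmdmc, a folate enzyme gene that overlaps Rel in the annotation, read 45.8, 127.1 and 271.7 in the Relish mutant, against 845.0, 744.2 and 503.1 in wild type given E. coli (log2 difference -1.87, SE 0.47, adjusted p = 0.0481). Its means were 602.4 in the Dif mutant, 578.3 in the dorsal mutant and 705.3 in wild type with PBS. Relish mutant replicate 3 lay above dorsal mutant replicate 2, which read 226.4. The differences from the Dif and dorsal mutants did not pass the test (adjusted p = 0.0955 and 0.106). Because the genes overlap, the value for Nmdmc is uncertain, and its call was kept in 1 of the 6 fits (adjusted p up to 0.208).

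Of the 215 called probe sets, 183 had a single gene symbol, 8 had several and 24 were not named by the annotation used. The largest unnamed rise was 141407_at, at 94122.4, 119969.7 and 113222.7 signal units in the Relish mutant, against 348.7, 741.2 and 596.5 in wild type given E. coli (log2 difference 7.45, SE 0.29, adjusted p = 2.24e-11). Its means in the Dif and dorsal mutants were 115073.0 and 92543.9, and that of wild type with PBS was 187.8, so all 3 mutant groups stood apart from both wild type groups. The largest unnamed falls were 147220_s_at, at 747.7, 371.6 and 1240.3 in the Relish mutant, against 56045.3, 51106.4 and 59667.9 in wild type given E. coli, and 141374_at, which fell by 5.75. The other unnamed probe set among the strongest rises, 143790_at, rose by 1.87, a call kept in 2 of the 6 fits without an array (adjusted p up to 0.109). In wild type with PBS the 2 falling probe sets averaged 7739.5 and 2153.4.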

How the data were processed

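Signals of Affymetrix DrosGenome1 arrays were used as deposited. Per the labels, the authors made these intensity values with Microarray Suite 5.0 at default settings with global scaling. The trimmed mean, without 2% at each end, lay between 800.2 and 800.25 on every array. No detection calls were used, and 3 arrays per group limit the precision. Of 14010 probe sets, 44 controls were left out. Names came from the platform annotation, in which 12443 probe sets had 1 symbol, 327 several and 1196 none, and 12394 of the symbols were found in the RefSeq table of Release 6. The genome build of the array is not given in the sources used here. Neighbouring and overlapping genes were taken from the gene order of the RefSeq table. No coordinates are printed and sequences were not analysed here.

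The test covered the 11427 probe sets that reached a signal of 160 on 3 or more arrays, and 2539 were removed. Values were log2(signal + 80). One linear model with 5 group means was fitted to all 15 arrays with limma 3.58.1 in R 4.3.3 (lmFit, eBayes with a variance trend, 10 residual degrees of freedom), with a two-sided moderated test and Benjamini-Hochberg adjustment over all probe sets tested. The script was tested on simulated data. A gene entered a list median with its brightest probe set.

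The members and the gene lists were chosen with earlier results of these data known, so no list has a test of its own. Named genes are Rel, Dif and dl, the 20 strongest rises and 20 strongest falls of called probe sets with 1 symbol and arrays that do not overlap, the called members of each list (or its largest differences, up to 2), and at most 2 unnamed rises and falls. Alternatives were another pseudocount, filter, normalization, variance model, array weights, a replicate block, averaging of arrays that share a title number, the compared groups alone, each array left out and, chosen after seeing the data, the glue level as a covariate.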

Additional observations from a re-analysis of the deposited data

How the results depend on the processing

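Across 17 alternatives no named log2 difference changed sign among the calls. The 215 calls (85 higher, 130 lower) became 94 (33 and 61) on averaging the arrays that share a title number, where fewer samples were left, and lay between 116 and 167 with each of the 6 arrays left out in turn (42 to 79 higher, 71 to 106 lower). The other alternatives gave 167 to 293. Of the 215, 88 were kept without each of the 6 arrays (29 higher, 59 lower) and 81 under all 17 alternatives, and of 71 named probe sets called, 40 were kept without each array. The comparison with the Dif mutant gave 131 calls, 67 without the variance trend, 87 in a fit of those groups alone and 61 to 119 with an array left out. The comparison with the dorsal mutant gave 348 calls, 167 without the variance trend, 71 in a fit of those groups alone, 87 on averaging by title number, 141 with glue level in the model, an alternative chosen after seeing the data, and 114 to 306 with an array left out. The causes were not tested. Replicate numbers did not pair the samples, since deviations of same-numbered arrays correlated at -0.0085, 0.111 and -0.0361. With the replicate number as a block 234 probe sets were called (94 higher, 140 lower), 158 against the Dif mutant and 405 against the dorsal mutant. Signals near the pseudocount limit what can be read: 13 falls ended at a Relish mutant mean below 80 and 9 rises had a wild type E. coli mean below 80.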
